A study of Mus musculus with 2 samples.

Results

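The transcripts of 10 genes of SMAD signalling were examined in mouse CD4+ T cells that were being turned into induced regulatory T (Treg) cells. They were chosen by gene symbol: the signal transducers Smad1, Smad2, Smad3 and Smad4, the inhibitory SMAD gene Smad7, the ubiquitin ligase genes Smurf1 and Smurf2, and the nuclear repressor genes Ski, Skil and Tgif1. All 10 were found, among 23282 rows of 23238 distinct symbols. Naïve CD4+ T cells from spleens of wild-type female C57BL/6 mice, used at 7 to 10 weeks of age, were activated with antibodies to CD3ε and CD28 in the presence of TGF-β1 (5 ng/ml), IL-2 (1 ng/ml) and antibodies that block IFN-γ and IL-4. The control culture received DMSO, the solvent. The treated culture received 10 μM Tubastatin A (TSA), an inhibitor of the deacetylase HDAC6 that is dissolved in DMSO. RNA was taken after 1 day, and 1 library was made per condition, so no difference given here has a replicate check.

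TGF-β binds receptor kinases at the cell surface, which phosphorylate the receptor-regulated SMAD proteins. SMAD2 and SMAD3 carry the TGF-β and activin signal and SMAD1 the signal of bone morphogenetic proteins, and each joins SMAD4 to act on genes in the nucleus. SMAD7 blocks the activated receptor and brings SMURF ligases to it. SKI, SKIL (also called SnoN) and TGIF1 sit on SMAD complexes and recruit corepressors with histone deacetylases. In T cells TGF-β and SMAD3 take part in the induction of Foxp3, the gene that defines Treg cells.

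The libraries were made from the 3′ ends of polyadenylated transcripts (QuantSeq) and read as single-end 75-nt reads, so that a transcript gives about 1 read whatever its length, and levels of different genes are compared here as reads without division by length. The deposited log2 values (1 added to a normalized count before the logarithm) could be turned back into whole reads. For the most abundant genes these reads are approximate. The reads summed to 10846166 (control) and 10432628 (TSA); pairs of values below are given in that order, control before TSA. Of 7 T cell marker genes, all had at least 602 reads in each library, and the summed reads of the markers of other cells were 12 and 15 for B cells, 32 and 25 for myeloid cells, 50 and 46 for NK cells, 56 and 96 for dendritic cells, 42 and 54 for erythroid cells and 80 and 87 for CD8 T cells. The 3 dendritic cell markers did not move together: Flt3 had 0 and 33 reads, Itgax 4 and 0, and H2-Aa 52 and 63 (1.20-fold, 95% interval 0.818 to 1.77). The part of these cells in the results below was not tested. Hdac6, whose protein is the target of TSA, had 146 and 166 reads, so that the TSA value was 1.13 times the control value (95% interval 0.896 to 1.42). Its mRNA does not check the labels, since TSA acts on the protein.

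In GENCODE M21 on GRCm38 (mm10), all 10 are protein-coding genes. Smad2 (76241580 to 76310963, plus strand), Smad7 (75367529 to 75395935, plus strand) and Smad4 (73639009 to 73703780, minus strand) lie within 2.67 Mb of each other on chromosome 18. Smad3 lies on chromosome 9 from 63646767 to 63757994 and Smad1 on chromosome 8 from 79338395 to 79399518, both on the minus strand. Smurf1 is on chromosome 5 from 144876495 to 144965847 and Smurf2 on chromosome 11 from 106820066 to 106920715, both on the minus strand. Ski is on chromosome 4 from 155154075 to 155222592 (minus strand), Skil on chromosome 3 from 31095058 to 31122577 (plus strand) and Tgif1 on chromosome 17 from 70844205 to 70853546 (minus strand). No other annotated gene overlapped the last 1000 bases of any of the 10, taken at the outermost annotated end. Elsewhere, Smad4, Smurf1 and Smurf2 each overlapped 1 other annotated gene. The positions of the reads themselves were not examined.

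The 10 genes were all expressed after 1 day of culture, with 240 to 1655 reads in control and 275 to 1824 in TSA-treated cells. None passed a 2-fold difference in either direction, against 14.7% of the 12164 genes that had at least 10 reads in at least 1 library. Their mean normalized counts ran from 259 to 1739, where fewer genes passed 2-fold: 4.52% of genes with a mean of 100 to 500, the class of 6 of the 10 genes, and 0.934% of genes with 500 or more, the class of the other 4. Past 1.5-fold none of the 10 was found with the deposited scaling, against 27.1% of all genes, low counts included. No share past 1.5-fold was taken for genes of like level, so this contrast is not matched for level. Smad3 passed 1.5-fold, as the 1 gene of the 10, under 3 of the 5 other scalings: total reads (log2 difference 0.62), total reads without the ribosomal RNA gene Rn45s (0.63) and upper quartile (0.59). For 4 of the 10 the 95% interval of the fold change, which covers counting error only, excluded no change: Smad3, Tgif1 and Ski were higher in the TSA library and Smad2 was lower. Among all genes the interval excluded no change for 56.1% (28.1% higher and 28.0% lower), for 51.1% of those with a mean of 100 to 500 and for 69.3% of those with 500 or more, so that the count of 4 is no more than the table as a whole gives. The median log2 fold change of the 10 genes was 0.13, beside 0.015 for all genes counted. In bulk RNA, a difference in the level per cell and a difference in the share of cells that express a gene cannot be told apart.

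**Figure D1:**
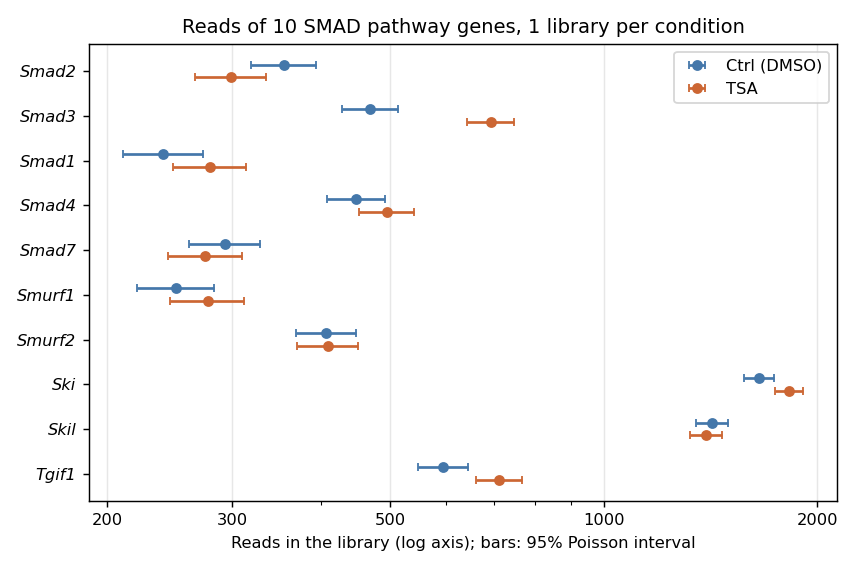
Reads of each of the 10 genes (horizontal log axis) in the control library (blue) and the TSA library (orange), with 95% Poisson intervals of the counts as bars. Ski and Skil stand apart from the other genes in both libraries, and Smad3 shows the widest gap between libraries, 469 against 693 reads.

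Among the receptor-regulated SMAD genes, Smad3 was higher and Smad2 lower in the TSA library. Smad3 had 469 and 693 reads (deposited log2 values 8.884 and 9.432), which is 0.55 higher on the log2 scale or 1.46-fold (95% interval 1.30 to 1.65). It was the largest difference of the 10, and of the 3962 genes with a mean normalized count of 500 or more, 1.99% had a higher log2 fold change. Smad2 had 355 and 299 reads (8.483 and 8.222), a difference of -0.26 on the log2 scale or 0.835-fold (0.713 to 0.975). Among the 4226 genes with a mean of 100 to 500, 25.2% had a lower log2 fold change than Smad2. Its interval included no change with scaling by total reads (log2 difference -0.19) or by upper quartile (-0.22). Smad1 had 240 and 279 reads, or 1.15-fold (0.965 to 1.37). It was the gene of the 10 with the fewest reads in the control library.

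Smad4, which encodes the partner shared by all receptor-regulated SMAD proteins, had 448 and 495 reads, or 1.09-fold (0.961 to 1.25). The intervals of Smad1 and Smad4 included no change with the authors' scaling and excluded it, on the higher side, with total-read scaling.

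**Figure D2:**
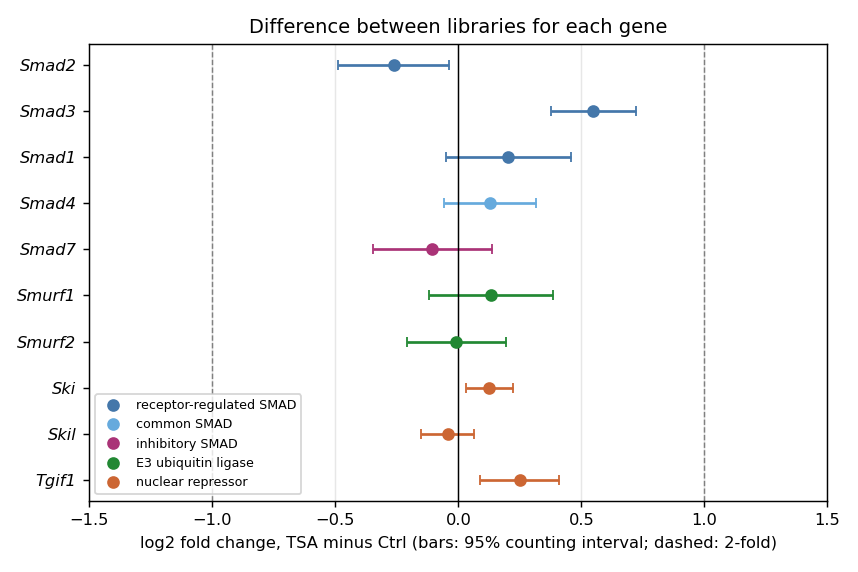
Log2 fold change (TSA minus control) of each gene on the horizontal axis, with 95% counting intervals as bars and colours for the role of the encoded protein. All 10 points lie between -0.26 and 0.55, inside the dashed lines that mark 2-fold, and the intervals of Smad3, Tgif1, Ski and Smad2 do not cross 0.

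Ratios of reads within a library do not depend on how the libraries were scaled. The ratio of Smad3 to Smad2 reads was 1.32 and 2.32, an odds ratio of 1.75 with an exact 95% interval of 1.44 to 2.14. Smad3 was thus the more abundant of the pair in both libraries, and by more in the TSA library. Smad3 also gained on Smad7, with ratios of 1.60 and 2.52 and an odds ratio of 1.57 (1.28 to 1.94). The odds ratio of Smad3 to Smad1 was 1.27 (1.03 to 1.57) and that of Smad3 to Tgif1 1.23 (1.05 to 1.45). Of the 7 ratios examined, 5 contain the Smad3 reads, these 4 and the ratio of the repressor sum to the transducer sum given below, so they are not separate evidence. All intervals cover counting error only, which, as given above, 56.1% of single genes exceeded.

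**Figure D3:**
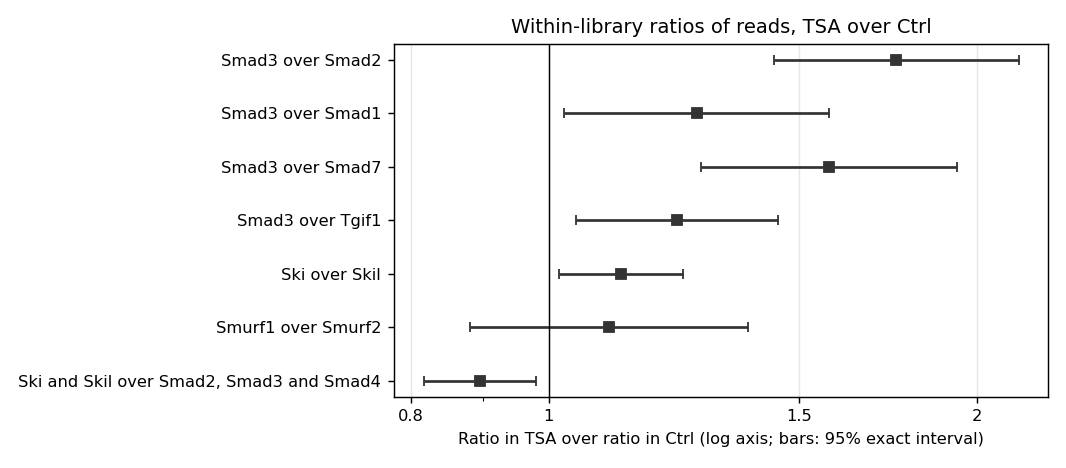
For 7 ratios of reads between genes or sums of genes, the ratio in the TSA library over that in the control library (horizontal log axis), with exact 95% intervals as bars. The 4 ratios with Smad3 as numerator lie above 1, with Smad3 over Smad2 highest at 1.75, and the interval of Smurf1 over Smurf2 crosses 1.

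The genes that restrain the receptor differed little between the libraries. Smad7 had 293 and 275 reads, or 0.929-fold (0.785 to 1.10). Smad7 is itself a gene that SMAD3 and SMAD4 switch on in many cells. Smurf1, whose protein was first known for the turnover of the SMAD proteins of the BMP branch, had 250 and 277 reads, or 1.10-fold (0.921 to 1.31). Smurf2 had 407 and 409 reads, or 0.994-fold (0.865 to 1.14), which leaves out differences larger than those bounds as far as counting error goes. Smurf2 had more reads than Smurf1 in both libraries, with a Smurf1 to Smurf2 ratio of 0.614 and 0.677 and an odds ratio of 1.10 (0.880 to 1.38).

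The nuclear repressor genes were the most abundant of the set. Ski had 1655 and 1824 reads, and Skil had 1422 and 1394. Together they held 50.2% of the control reads of the 10 genes and 48.3% of the TSA reads. By level, Ski stood above 89.5% and 91.4% of all genes counted, while Smad1 stood above 50.2% and 53.5%. The fold change of Ski was 1.09 (1.02 to 1.17) and that of Skil 0.971 (0.901 to 1.05). Skil encodes a repressor whose gene is induced by TGF-β as part of a negative feedback loop, and its log2 difference of -0.04 turned to 0.027 once total reads set the scale. Smurf2 changed sign in the same way, from -0.01 to 0.063, and also with upper-quartile scaling (0.035).

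The ratio of Ski to Skil was 1.16 and 1.31, an odds ratio of 1.12 (1.02 to 1.24). Ski and Skil reads summed exceeded those of Smad2, Smad3 and Smad4 summed in both libraries, by ratios of 2.42 and 2.16, an odds ratio of 0.895 (0.817 to 0.980). That direction rests on Smad3: against Smad2 and Smad4 alone the ratios were 3.83 and 4.05, an odds ratio of 1.06 (0.946 to 1.18). With Tgif1 added to the repressors, the odds ratio against all 3 transducers was 0.916 (0.839 to 1.001).

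Tgif1, which encodes a homeodomain repressor that binds SMAD2 and SMAD3, had 594 and 713 reads. Its log2 difference was 0.25, or 1.19-fold (1.06 to 1.33). Of genes with a mean normalized count of 500 or more, 10.1% had a higher log2 fold change than Tgif1. Ski, Tgif1 and Smad3 were higher beyond counting error under each of the 5 other scalings as well.

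RefSeq promoter windows (GRCm38.p6) were at hand for 6 of the 10 genes: Smad1, Smad3, Smurf1, Smurf2 and Ski with 1 window each, and Tgif1 with 5. They were searched, on both strands and over the 250 bases before the transcript start, for CAGAC, a short SMAD-binding motif, and GGCGCC, a GC-rich SMAD-binding motif, which do not overlap each other in these windows. CAGAC was found in 42.2% and GGCGCC in 9.59% of all 32851 windows of that length. The windows of Smad3 and Smad1 held neither. Smurf1 held CAGAC at 2 places, Smurf2 held CAGAC at 1 place and GGCGCC at 2, and Ski held GGCGCC at 1 place. Of the 5 Tgif1 windows, 3 held CAGAC. The GC content was 69.2% for Smad3 and 87.6% for Ski, beside a median of 52.4% over all windows. A match is a string of letters and not a site shown to be bound. The windows of the genes with the widest differences toward the TSA library, Smad3 at chr9:63757995-63758244 and Tgif1 at chr17:70853533-70853782 (its outermost start), both on the minus strand, are given 5′ to 3′ in lower case, with any CAGAC, on either strand, in capitals.
Smad3: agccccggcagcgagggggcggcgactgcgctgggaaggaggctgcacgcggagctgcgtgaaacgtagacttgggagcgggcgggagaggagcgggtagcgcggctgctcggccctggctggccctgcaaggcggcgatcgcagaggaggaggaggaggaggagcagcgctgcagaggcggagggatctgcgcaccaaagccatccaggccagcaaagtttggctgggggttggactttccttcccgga
Tgif1: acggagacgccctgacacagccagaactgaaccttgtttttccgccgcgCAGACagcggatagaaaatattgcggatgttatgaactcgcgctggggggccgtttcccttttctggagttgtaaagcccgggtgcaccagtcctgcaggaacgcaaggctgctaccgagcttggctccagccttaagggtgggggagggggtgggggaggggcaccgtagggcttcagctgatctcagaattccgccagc

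**Figure D4:**
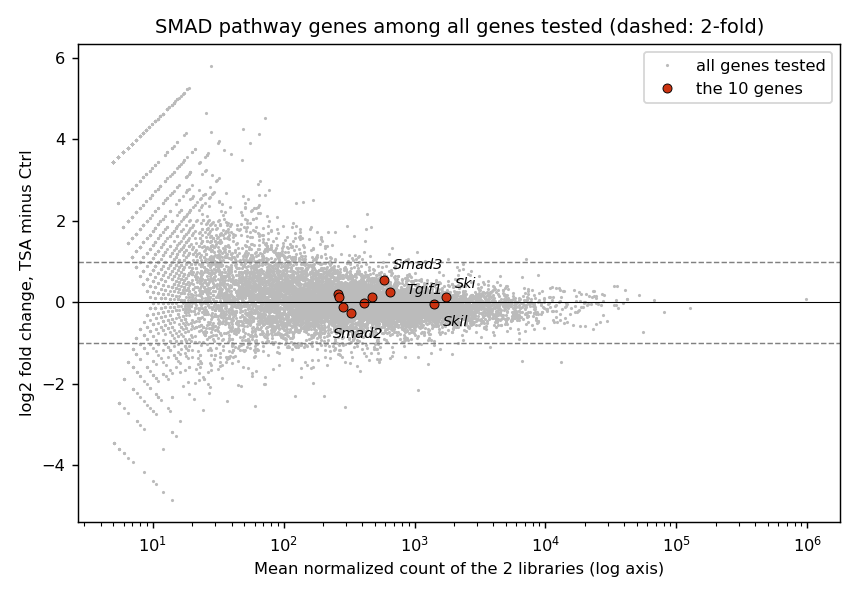
Log2 fold change (TSA minus control) against the mean normalized count of the 2 libraries (log axis) for all 12164 genes counted (grey) and the 10 genes (red), with dashed lines at 2-fold. The 10 genes lie within the band of genes of similar level, and the points past 2-fold gather at low counts, above the upper line more than below the lower one.

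The remaining SMAD and TGIF genes showed no difference beyond counting error. Smad5, a further gene of the BMP branch, had 471 and 453 reads, or 0.952-fold (0.835 to 1.09). Smad6, the other inhibitory SMAD gene, had 19 and 16 reads (0.834, 0.401 to 1.71), and Smad9 had no read in either library. Tgif2, the relative of Tgif1, had 545 and 528 reads, or 0.959-fold (0.849 to 1.08). Smad7 was thus the main inhibitory SMAD transcript in both libraries.

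Further lists of pathway genes were set beside the 10. With the SMAD and TGIF genes above, 73 of 88 had enough reads to be counted. Of these, 11 passed 2-fold on the higher side with TSA, a share of 15.1% beside 11.5% of all genes, and 0 were lower, beside 3.15% of all genes. Of the 11, 10 had a mean normalized count under 100, and the exception was Nedd4l. Low-count genes pass 2-fold more often. In either direction 14.7% of all genes passed, against 4.52% with a mean of 100 to 500 and 0.934% with 500 or more. Acvr1c, Bmp2, Bmp4 and Fn1 met the filter of 10 reads through the TSA library alone, where they were high. With 10 reads required in both libraries, 7 of 69 pathway genes (10.1%) passed 2-fold on the higher side, beside 4.80% of all genes, and the lists held 3 ligand and receptor genes in place of 6 and 1 target gene in place of 2.

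Among 23 SMAD partners and cofactors, 21 were counted. By the interval, 7 were higher and 10 lower, where 28.1% of all genes were higher and 28.0% lower (69.3% in either direction at a mean of 500 or more), and the median log2 fold change was -0.12, beside 0.015 for all genes. The genes past 2-fold were Zeb2 and Ctbp2, both higher and of low count, where 11.5% of all genes were higher by 2-fold. Zeb2, a repressor that binds SMAD proteins, had 13 and 43 reads (fold change 3.28, interval 1.73 to 6.64). Ctbp2, a corepressor, had 11 and 29 reads (2.61, 1.27 to 5.79). The cofactors of highest level were Ncor1, a corepressor that recruits histone deacetylases, with 4826 and 3980 reads (0.817, 0.783 to 0.852), and Runx3, a transcription factor that cooperates with SMAD3, with 2578 and 2912 reads (1.12, 1.06 to 1.18).

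All 16 genes for SMAD turnover and dephosphorylation were counted, with 4 higher and 3 lower by the interval, against 28.1% and 28.0% of all genes, and a median log2 fold change of 0.076 against 0.015. Nedd4l, which encodes a ubiquitin ligase that targets activated SMAD2 and SMAD3, had 114 and 300 reads, or 2.61-fold (2.09 to 3.26). It was the pathway gene with at least 100 normalized counts that passed 2-fold, and its whole interval lay beyond 2-fold. The genes of highest level in this list were both lower: Stub1, a chaperone-linked ubiquitin ligase, with 1294 and 1037 reads (0.794, 0.731 to 0.862), and Uchl5, a deubiquitinase of the proteasome, with 1262 and 976 reads (0.766, 0.704 to 0.833).

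Of 27 ligand, receptor and adaptor genes, 19 were counted, with 10 higher and 3 lower by the interval (all genes 28.1% and 28.0%) and a median log2 fold change of 0.33 (all genes 0.015). Acvr1c, Bmp2 and Bmp4 are among the 10 higher and raise this median. They were counted only through the TSA library, where they were high, so neither value can be taken as a trait of the list. The 6 past 2-fold, where 11.5% of all genes were higher by 2-fold, all had low counts. They were the type I receptor genes Acvrl1 (22 and 95 reads, fold change 4.28, interval 2.67 to 7.14) and Acvr1c (3 and 49 reads, 16.2, 5.22 to 81.1), the type II receptor gene Acvr2b (10 and 38 reads, 3.76, 1.84 to 8.47), the decoy receptor gene Bambi (19 and 70 reads, 3.65, 2.17 to 6.42) and the ligand genes Bmp2 and Bmp4. Bmp2 had 0 and 10 reads and Bmp4 0 and 12, which is at least 3.30-fold and at least 3.96-fold higher when the control library is set at 3 reads, the limit that a count of 0 allows, and the TSA reads are taken as they stand. With counting error in both libraries, the lower limits of the exact 95% intervals were 2.22 and 2.75. The most abundant genes of the list were Fkbp1a, whose protein binds the type I receptor, with 10490 and 10369 reads (0.979, 0.952 to 1.01), and Strap, whose protein binds the receptor and SMAD7, with 2724 and 2231 reads (0.811, 0.767 to 0.858).

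**Figure D5:**
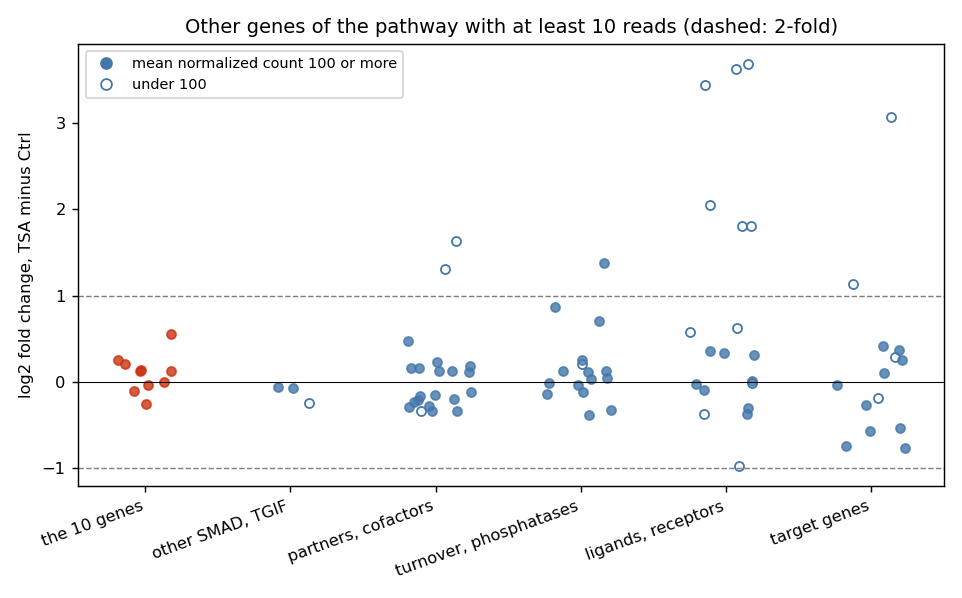
Log2 fold change (TSA minus control) of the 10 genes (red) and of the genes of 5 pathway lists with at least 10 reads in 1 library (blue), with filled circles for a mean normalized count of 100 or more and open circles for less, and dashed lines at 2-fold. The points above the upper line are open circles except Nedd4l, and no point lies below the lower line.

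Of 19 symbols widely used as SMAD target genes, 18 were found (Ccn2 and Ctgf are names of the same gene) and 14 counted, with 5 higher and 5 lower by the interval and a median log2 fold change of 0.030. The split over all genes, 28.1% higher and 28.0% lower with a median of 0.015, was as even. Fn1 is among the 5 higher and was counted only through the TSA library, where it was high. Without Fn1 the median would turn negative. Pmepa1, a TGF-β-induced gene whose protein holds SMAD2 and SMAD3 away from the receptor, was the most abundant, with 8328 and 5808 reads, or 0.691-fold (0.668 to 0.714). Junb, an AP-1 gene, had 2545 and 2136 reads (0.831, 0.784 to 0.881). The genes past 2-fold were both higher, where 11.5% of all genes were higher by 2-fold, and rested on few reads. Itgae, which encodes the integrin CD103, had 17 and 39 reads (2.27, 1.26 to 4.28). Fn1, which encodes fibronectin, had 3 and 33 reads (10.9, 3.42 to 55.5). Itgae no longer passed 2-fold with a pseudocount of 5. The remaining targets whose interval excluded no change are named here after their values were seen. Gadd45b (596 and 806 reads, 1.34, 1.20 to 1.49), Id2 (1028 and 1341 reads, 1.29, 1.19 to 1.40) and Id3 (692 and 832 reads, 1.19, 1.08 to 1.32) were higher. Foxp3 (1633 and 965 reads, 0.585, 0.540 to 0.634), Cdkn1a (1388 and 833 reads, 0.594, 0.545 to 0.648) and Bhlhe40 (384 and 261 reads, 0.673, 0.573 to 0.790) were lower.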

How the data were processed

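Total RNA from 2 cultures, 1 with DMSO and 1 with TSA, was measured by sequencing of transcript 3′ ends. Per the labels, the build was mm10 and the tools included Bowtie2 and bedtools; their versions, the gene annotation and the normalization are not given in the sources used here. The authors deposited 1 value per gene on a log2 scale, read here from the values as log2 of a normalized count plus 1 and rounded to 3 decimals. Taken off that scale, 1 read was worth 1.00 (control) or 0.995 (TSA) normalized counts; of values up to 300 reads, 99.95% and 99.94% lay within 0.1 of a whole read. Rounding leaves Ski uncertain by 0.63 reads. Genes described with more reads than Ski, such as Pmepa1 and Fkbp1a, are uncertain by more, so their reads are approximate. In the control library 1940 rows listed at 0.001 to 0.016 were read as 0 reads.

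The log2 fold change is the deposited TSA value minus the control value. A gene was counted where either library held 10 or more of its reads, and 2-fold was the threshold. Intervals are exact Clopper-Pearson 95% intervals of the fold change and exact conditional 95% intervals of odds ratios. They cover counting error only, since 1 library per condition gives no spread between replicates. PCR copies could not be told apart, so reads may not be separate molecules, and the intervals may be too narrow even for counting error. No p-value was computed. The code was checked on simulated data. Python 3.11.15, numpy 2.4.6, pandas 2.3.3, scipy 1.17.1 and matplotlib 3.10.9 were used. Alternatives changed the scaling (total reads, total reads without the ribosomal RNA gene Rn45s at 8.72% and 9.63% of reads, upper quartile, median of ratios, trimmed mean of M-values), pseudocount, filter and threshold. Genes named are the 10 genes, Hdac6, the other SMAD and TGIF genes, and from each other list those past 2-fold (at most 6) and the 2 of highest level. Outside that rule, the dendritic cell markers and the target genes Gadd45b, Id2, Id3, Foxp3, Cdkn1a and Bhlhe40 were named after their values were seen. The genes and lists were chosen with earlier results of these data known.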

Additional observations from a re-analysis of the deposited data

How the results depend on the processing

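No paired analysis was possible because each condition had a single library, which also leaves no replicate to drop. The count of the 10 genes past 2-fold was 0 under every scaling, pseudocount and filter tried, and the 80 recomputed log2 fold changes of the 10 genes moved by at most 0.085. With total-read scaling, which shifted the median of all genes by 0.070, and in part with upper-quartile scaling, the signs of Skil and Smurf2 turned and the interval calls of Smad2, Smad1 and Smad4 changed, as given above. Under alternatives chosen after seeing the data, the count past 1.5-fold went from 0 to 1 (Smad3) with total-read, total-read without Rn45s and upper-quartile scaling, and the odds ratio of Ski and Skil to Smad2, Smad3 and Smad4 went from 0.895 to 1.06 without Smad3 and to 0.916, its interval then including no change, with Tgif1 added. Over all genes, 1783 passed 2-fold (1400 higher, 383 lower). Without a filter on low counts 4017 did (2817 higher, 1200 lower, 70.1% higher against 78.5%), with 10 reads in both libraries 747 (524 higher, 223 lower), with normalized counts averaging 50 or more 419 (278 higher, 141 lower, 66.3% higher), and with a 1.5-fold threshold 3293 (2279 higher, 1014 lower, 69.2% higher). The filters change which genes are counted, and a lower threshold lets more genes pass. Each scaling moves the log2 fold changes of well-read genes by nearly the same amount. Why the share on the higher side differed between settings was not tested. With 10 reads in both libraries, pathway genes higher by 2-fold went from 11 to 7. With a pseudocount of 5, target genes past 2-fold went from 2 to 1 (Itgae lost). With a mean of at least 50, the pathway lists kept 1 gene past 2-fold for ligands and receptors in place of 6, and 0 in place of 2 for cofactors and for targets. Depth limits the low-count genes: 3 reads correspond to 3.01 (control) and 2.99 (TSA) normalized counts.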
